A study of Mus musculus with 20 samples.

Results

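Expression of 35 cell proliferation genes was measured in 2 organs, liver and kidney, of UM-HET3 male mice, a stock bred to be genetically heterogeneous, given a mixture of small molecules or its solvent. The genes were a fixed list of symbols, each matched to its Ensembl identifier, and all 35 were found among the 57010 genes of the count table. They encode the MCM2 to MCM7 helicase and PCNA (7 genes), enzymes of nucleotide supply (2), cyclins with CDK1 and CDC25C (7), the transcription factors E2F1 and FOXM1 (2), mitotic kinases and checkpoint proteins (6), partners of the anaphase promoting complex (2), proteins of the kinetochore, spindle and cytokinesis (7), and the chromosome proteins Ki-67 and topoisomerase II alpha (2).

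RNA-seq was run on 10 livers and 10 kidneys of mice that were 12 months old when osmotic pumps were implanted under the skin for 28 days. For 6 samples of each organ the pump held 7c, a chemical reprogramming mixture that delivered repsox, tranylcypromine, DZNep, CHIR99021, forskolin and TTNPB at 0.1 mg/kg/day each and valproate at 1 mg/kg/day. For 4 of each it held vehicle alone, DMSO at 50% in PEG300, so that every animal carried a pump and the solvent and no group was untreated. The resulting 20 libraries were bulk tissue, and their labels called them biological replicates without stating whether equal numbers in liver and kidney came from the same animal. The comparisons ask whether 7c changed proliferation genes in either tissue and how the genes differed between tissues.

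Dividing cells load the MCM helicase onto DNA in G1, copy DNA in S phase with PCNA as the sliding clamp, and enter mitosis when CDK1 is activated by cyclins A and B. Genes of the replication machinery are classic targets of E2F factors, whereas many mitotic genes are switched on later by FOXM1 and B-MYB. Promoters of such mitotic genes often hold CHR elements and CCAAT boxes. Adult hepatocytes and kidney tubule cells rarely divide, so transcripts of this programme are known to be scarce in both organs. In bulk tissue, a smaller number of cycling cells and less RNA per cycling cell cannot be told apart.

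The libraries held 27855849 to 64872451 counts, of which 1937 to 10869 fell on the 35 genes. Levels are given as CPM (counts scaled to a common library size) scaled with the trimmed mean of M values (TMM), and levels of different genes are compared only per kilobase of exon. All 6 hepatocyte markers were higher in liver and all 6 kidney tubule markers were higher in kidney, in vehicle and in 7c mice alike. Between 73.6% and 82.2% of the gene counts from 1 to 49 in each library were even numbers. How read pairs were counted is not given in the sources used here, so a printed count may exceed the number of fragments behind it, and with counts halved none of the 35 genes passed for 7c, where 0.00666% of all tested genes passed in liver and 0.0113% in kidney. Kidneys of 7c mice had more adipocyte transcripts, with a summed level of 5 markers of 8.20 to 44.5 CPM against 0.447 to 10.6 CPM with vehicle, with all 5 markers at an unadjusted p under 0.05 and none past the adjusted threshold. Summed hepatocyte markers in kidney were 78.1 to 284 CPM under 7c and 173 to 274 CPM with vehicle. Of the 6 markers, 5 had a negative log2 fold change in kidney (median -1.01, lowest -2.99), 3 had an unadjusted p under 0.05 and none passed the adjusted threshold. The part of either in the kidney results was not tested. Liver 6 of the 7c group stood apart with 704 CPM of 4 skeletal muscle markers, against 0 to 0.363 CPM in the other 9 livers, and its effect is given where it bears on a result.

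The promoters of the genes differ in sequence motifs that are linked to this programme. Windows from 250 bases before to 50 bases after the start site were searched on both strands for an E2F site (TTTNNCGC with C or G at each N), the CHR element (TTTGAA) and the CCAAT box (CCAAT). An E2F site was found in 6 of 35 windows (17.1%) against 2.82% of 21770 protein-coding genes, and 5 of these 6 were among the 12 genes of replication, nucleotide supply, cyclin E and E2F1. A CHR element was found in 14 windows (40%) against 17.1% of all promoters, and 12 of the 14 were among the 23 other genes. A CCAAT box was found in 23 windows (65.7%) against 39.9%, and CHR together with CCAAT in 13 (37.1%) against 7.45%. The 140 bases before the start of 4 genes, all on the minus strand of GRCm39, are shown to let the arrangements be compared, with every complete match in capitals.
Mcm6, chr1:128287453-128287592: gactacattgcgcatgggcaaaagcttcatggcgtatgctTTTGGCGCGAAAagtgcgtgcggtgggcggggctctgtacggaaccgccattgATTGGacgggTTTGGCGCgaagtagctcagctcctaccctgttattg
Ccnb2, chr9:70328875-70329014: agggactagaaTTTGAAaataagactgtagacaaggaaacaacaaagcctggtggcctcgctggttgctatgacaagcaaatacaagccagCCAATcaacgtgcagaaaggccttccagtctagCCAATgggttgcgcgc
Cdk1, chr10:69188769-69188908: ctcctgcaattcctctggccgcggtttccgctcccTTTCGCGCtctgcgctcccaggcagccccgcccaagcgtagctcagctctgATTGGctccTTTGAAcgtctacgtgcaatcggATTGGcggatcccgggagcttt
Top2a, chr11:98915042-98915181: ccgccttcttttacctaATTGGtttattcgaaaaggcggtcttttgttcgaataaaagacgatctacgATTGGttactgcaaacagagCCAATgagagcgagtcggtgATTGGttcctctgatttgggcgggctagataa
The Mcm6 stretch carries 3 E2F matches, of which 2 overlap on opposite strands in 1 run of capitals, and a CCAAT box read on the other strand. Ccnb2 carries a CHR element and 2 CCAAT boxes and no E2F site, Cdk1 carries an E2F site, a CHR element and CCAAT boxes, and the Top2a stretch shows CCAAT boxes, its 2 CHR matches lying in the searched window but outside the bases shown. These are matches of letters, and binding was not measured.

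The programme was expressed at a low level in all libraries. The mean log2 CPM over the 35 genes was -0.03 ± 0.22 (SD, n = 6) in 7c livers, -0.25 ± 0.18 (n = 4) in vehicle livers, 0.79 ± 0.17 (n = 6) in 7c kidneys and 0.71 ± 0.17 (n = 4) in vehicle kidneys. Per kilobase, Pcna was the most abundant, at 8.17 CPM per kb in vehicle livers and 6.69 in vehicle kidneys. Mcm7, a helicase subunit, followed with 3.75 and 3.93 CPM per kb, and Mcm6 had the next highest level averaged over the 4 groups, at 0.473 and 1.95 CPM per kb in vehicle livers and kidneys. That rank of Mcm6 came from kidney, since in vehicle livers it was below Tyms (1.24 CPM per kb). Pcna reads may be shared with the pseudogenes Pcna-ps1 and Pcna-ps2, and Mcm7 overlaps exons of Cops6 and Ap4m1 on the other strand. At the other end stood Cdc25c, the phosphatase that activates CDK1, the kinetochore protein gene Cenpf and the checkpoint kinase gene Bub1. Cdc25c had 0 counts in 9 of 10 livers and 0.0341 CPM per kb in vehicle kidneys. Bub1 had 0 counts in all 4 vehicle livers and in 2 of 6 7c livers, and Cenpf had 0 counts in 1 of 4 vehicle livers and 4 of 6 7c livers. In total 26 genes passed the count filter in liver and 34 in kidney. The genes below it in liver were Ccnb1, Ccne1, Cdc25c, Bub1, Bub1b, Aurkb, Plk1, Cenpe and Cenpf, and Cdc25c was also below it in kidney.

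**Figure D1:**
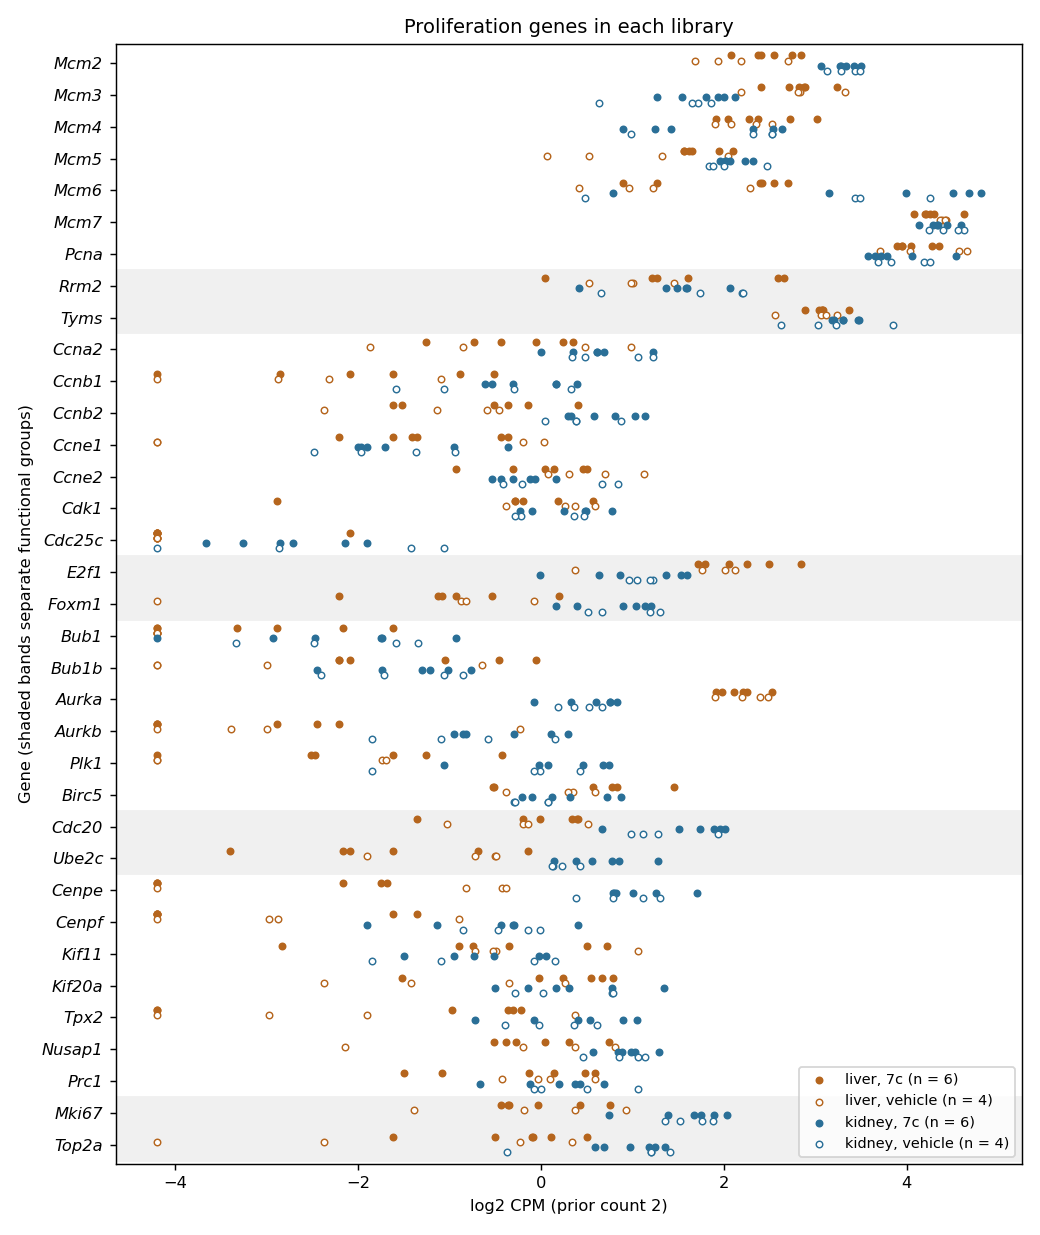
Level of each of the 35 genes (rows) in every library, as log2 CPM with a prior count of 2 on the horizontal axis; filled points are 7c (n = 6), open points vehicle (n = 4), orange liver and blue kidney. Filled and open points of the same colour are intermixed, while kidney points lie to the right of liver points for genes such as Mki67 (3.07 against 1.06 CPM in vehicle mice) and to the left for Aurka (1.31 against 4.74 CPM).

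In liver, none of the 26 tested genes passed the threshold for 7c against vehicle in edgeR's quasi-likelihood test with Benjamini-Hochberg adjustment, and none had an unadjusted p under 0.05. Over all 15012 tested genes, 0.00666% passed the threshold and 3.76% had an unadjusted p under 0.05. The log2 fold changes of the 26 genes ran from -0.60 to 0.99 with a median of 0.09, and 14 were positive, whereas the median over all tested genes was 0.00. DESeq2, limma-voom and edgeR's likelihood ratio test also called 0 of them. Of all tested genes, DESeq2 called 0.02% higher and 0.02% lower, limma-voom 0% and 0.00666%, and the likelihood ratio test 0.0266% and 0.02%. Leaving out 1 number at a time moved the median between -0.04 (without 7c number 5) and 0.24 (without vehicle number 3), with 0.04 without 7c number 6. None of the 26 genes passed in any of these fits, where at most 0.00674% of all genes were higher and 0.0135% lower.

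Among the replication genes, Mcm6 had the lowest unadjusted p of the 26. Its CPM was 2.28, 1.89, 4.83 and 1.28 in the vehicle livers and ranged from 1.81 to 6.44 with a median of 5.25 in the 7c livers. The groups overlapped, although 4 of 6 7c livers lay above every vehicle liver, and the log2 fold change was 0.77 (SE 0.43, adjusted p = 0.9996). Mcm5, another helicase subunit, was at 2.45, 1.38, 4.07 and 0.994 CPM with vehicle and at 2.90 to 4.24 CPM with a median of 3.05 under 7c, a log2 fold change of 0.55 (SE 0.36). For Mcm5, 1 of 6 7c livers exceeded all vehicle livers. Mcm2 was at 4.49, 3.17, 6.45 and 3.76 CPM with vehicle and at 4.17 to 7.12 CPM with a median of 5.53 under 7c, and 2 of 6 7c livers exceeded all vehicle livers. Its log2 fold change was 0.32 (SE 0.24). Pcna, the sliding clamp, was at 23.8, 25.3, 13.03 and 16.4 CPM with vehicle and within that span in every 7c liver, from 14.8 to 20.4 CPM, with a log2 fold change of -0.23 (SE 0.17) that ran from -0.37 to -0.09 when 1 number was left out. The most precise estimate of the list was that of Mcm7, with a log2 fold change of -0.13 (SE 0.12) from 371 to 608 counts per library. Of its 7c values, 5 of 6 lay below all vehicle livers and 1 above them. Across the fits that left out 1 number, the log2 fold change ran from 0.55 (without vehicle 4) to 1.29 (without vehicle 3) for Mcm6, from 0.31 to 1.04 without the same numbers for Mcm5, and from 0.17 (without vehicle 2) to 0.56 (without vehicle 3) for Mcm2.

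Rrm2, the regulated subunit of ribonucleotide reductase, had 1.96, 1.38, 2.69 and 1.92 CPM in the vehicle livers and 0.973 to 6.24 CPM with a median of 2.67 in the 7c livers. In 7c livers 4 and 5 it reached 6.24 and 5.99 CPM, while the lowest of all 10 values was also a 7c liver, and the log2 fold change was 0.77 (SE 0.46). Its exons share 1437 bases with Gm59512 on the other strand, which leaves the assignment of reads uncertain. E2f1, which drives transcription of replication genes, was at 3.34, 4.30, 1.24 and 3.98 CPM with vehicle and at 3.22 to 7.10 CPM with a median of 4.41 under 7c, and 3 of 6 7c livers exceeded all vehicle livers. The log2 fold change of E2f1 was 0.53 (SE 0.34), and 0.26 to 0.68 when 1 number was left out. Ccne2, encoding the E-type cyclin 2 that acts at S-phase entry, went the other way, with 1.18, 1.57, 1.00 and 2.13 CPM under vehicle, 0.470 to 1.36 CPM with a median of 1.01 under 7c, and a log2 fold change of -0.60 (SE 0.41), with -0.74 to -0.35 when 1 number was left out.

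Mitotic genes had few counts in liver and wide errors. Mki67, whose product Ki-67 coats mitotic chromosomes and is the usual marker of cycling cells, was at 0.326, 1.24, 0.827 and 1.85 CPM with vehicle and at 0.684 to 1.63 CPM with a median of 0.826 under 7c. All 6 7c values lay inside the vehicle span, and the log2 fold change was -0.12 (SE 0.49). Top2a, the topoisomerase that untangles replicated chromosomes, had 0, 0.801, 0.138 and 1.21 CPM with vehicle and 0.272 to 1.36 CPM with a median of 0.884 under 7c, with a log2 fold change of 0.62 (SE 0.81). Cdk1, the mitotic kinase, was at 1.14, 1.46, 1.24 and 0.710 CPM with vehicle and at 0.0811 to 1.43 CPM with a median of 0.793 under 7c, with a log2 fold change of -0.49 (SE 0.55), and -0.71 to -0.25 when 1 number was left out. Only 7c liver 3 fell below all vehicle livers. Kif20a, a kinesin of cytokinesis, had 1.14, 0.729, 0.138 and 0.320 CPM with vehicle and 0.294 to 1.68 CPM with a median of 1.27 under 7c, the highest log2 fold change of the list at 0.99 (SE 0.61). Leaving out 1 number moved the log2 fold change of Top2a between 0.22 (without vehicle 1) and 1.41 (without vehicle 4) and that of Kif20a between 0.67 (without vehicle 3) and 1.54 (without vehicle 1). Kif20a shares 3086 exon bases with Brd8 and Cdc23 on the other strand. For the mitotic cyclin gene Ccnb1, below the filter, vehicle livers had 0.0816, 0.146, 0.414 and 0 CPM and 7c livers 0 to 0.646 CPM with a median of 0.227.

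By role, the median log2 fold change in liver was 0.19 for the 7 licensing and replication fork genes, 0.41 for the 2 genes of nucleotide supply, -0.42 for the 4 tested cyclin and CDK1 genes, 0.33 for the 2 transcription factors and -0.02 for the 5 tested spindle and cytokinesis genes. The genes not given above lay between -0.58 for Ube2c and 0.55 for Ccnb2. Among them were Tyms, which makes thymidylate (0.05), the A-type cyclin gene Ccna2 (-0.34), and the spindle genes Kif11 (-0.30), Tpx2 (0.19), Nusap1 (-0.02) and Prc1 (-0.19).

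The 9 genes below the filter in liver were compared 1 at a time with an exact two-sided permutation test on CPM, whose smallest possible p was 0.00476. Cenpe, a kinesin that links chromosomes to spindle microtubules, gave the lowest p, with 0, 0.510, 0.689 and 0.710 CPM in the vehicle livers and 0 in 3 of 6 7c livers, the other 3 lying between 0.168 and 0.256 CPM. The difference of the means was -0.366 CPM (exact p = 0.0381, not adjusted for the 9 genes), but the groups overlapped at 0. The other 8 genes had exact p values from 0.133 (Bub1) to 1 (Cdc25c). Of all 35 genes, none had 7c and vehicle livers that did not overlap, against 0.666% of all tested genes.

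In kidney, none of the 34 tested genes passed the threshold or had an unadjusted p under 0.05, where 0% of 17749 genes passed and 2.61% had an unadjusted p under 0.05. Log2 fold changes ran from -0.55 to 0.67 with a median of 0.04, 20 were positive, and the median over all tested genes was -0.01. DESeq2, limma-voom and the likelihood ratio test called 0 of them as well. Of all tested genes, DESeq2 called 0.0451% higher and 0.0564% lower, limma-voom 0% and 0.0113%, and the likelihood ratio test 0.0225% and 0.0563%. No gene of the list had non-overlapping groups, against 0.716% of all tested genes.

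The 6 lowest unadjusted p values belonged to 5 genes with higher and 1 with lower group means under 7c. Ube2c, the ubiquitin-conjugating enzyme of the anaphase promoting complex, was at 1.04, 1.12, 1.29 and 1.03 CPM in vehicle kidneys and at 1.05 to 2.37 CPM with a median of 1.54 in 7c kidneys. In 4 of 6 7c kidneys it exceeded every vehicle kidney, and the log2 fold change was 0.49 (SE 0.26, adjusted p = 0.997). Cdc20, which activates the same complex, had 2.12, 2.37, 1.93 and 3.76 CPM with vehicle and 1.54 to 3.98 CPM with a median of 3.47 under 7c, a log2 fold change of 0.31 (SE 0.28). Birc5, encoding survivin of the chromosomal passenger complex, was at 0.997, 0.761, 0.764 and 1.00 CPM with vehicle and at 0.811 to 1.78 CPM with a median of 1.11 under 7c, and 4 of 6 7c kidneys lay above all vehicle kidneys. Its log2 fold change was 0.45 (SE 0.30). Ccnb2, a B-type cyclin gene, was at 1.25, 1.25, 0.976 and 1.78 CPM with vehicle and at 1.17 to 2.14 CPM with a median of 1.57 under 7c, with a log2 fold change of 0.28 (SE 0.27). The helicase gene Mcm3 had 1.496, 3.58, 3.23 and 3.09 CPM with vehicle and 2.35 to 4.30 CPM with a median of 3.60 under 7c, with a log2 fold change of 0.26 (SE 0.26), which ran from 0.05 without vehicle number 1 to 0.40 without vehicle number 2. Ccne2 was again lower under 7c, at 0.635 to 1.07 CPM with a median of 0.811 against 0.810, 0.694, 1.74 and 1.53 CPM with vehicle. Its log2 fold change of -0.55 (SE 0.32) rested on vehicle kidneys 3 and 4, since the others lay within the 7c range. Leaving out 1 number, the kidney log2 fold change ran from 0.20 to 0.56 for Cdc20, from 0.16 to 0.46 for Ccnb2, from 0.31 to 0.54 for Birc5, from 0.34 to 0.58 for Ube2c and from -0.74 to -0.31 for Ccne2. Ccne2 shares 852 exon bases with Ints8 on the other strand.

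The standard proliferation markers lay close together in the 2 groups of kidneys. Mki67 was at 3.35, 2.82, 2.50 and 3.62 CPM with vehicle and at 1.62 to 4.03 CPM with a median of 3.23 under 7c, a log2 fold change of -0.02 (SE 0.24). Top2a was at 2.60, 0.716, 2.25 and 2.25 CPM with vehicle and at 1.45 to 2.50 CPM with a median of 2.06 under 7c, a log2 fold change of 0.01 (SE 0.32). For Mki67, 2 of 6 7c kidneys lay above and 1 below all vehicle kidneys, whereas all 6 7c values of Top2a lay inside the vehicle span. Mcm2 was tight in all 10 kidneys, at 9.68, 8.66, 10.7 and 11.2 CPM with vehicle and 8.28 to 11.3 CPM with a median of 9.86 under 7c, a log2 fold change of -0.03 (SE 0.13). Pcna was at 18.2, 19.0, 14.2 and 12.9 CPM with vehicle and at 11.9 to 23.2 CPM with a median of 13.4 under 7c, a log2 fold change of -0.10 (SE 0.19), and -0.25 to -0.0020 when 1 number was left out. The mitotic pair Cdk1 and Ccnb1 had log2 fold changes of 0.20 (SE 0.30) and 0.41 (SE 0.42). Cdk1 was at 1.33, 0.805, 0.764 and 1.22 CPM with vehicle and at 0.801 to 1.66 CPM with a median of 1.24 under 7c. Ccnb1 was at 1.21, 0.761, 0.424 and 0.278 CPM with vehicle and at 0.601 to 1.26 CPM with a median of 0.912 under 7c. The groups overlapped for both. With 1 number left out the log2 fold change of Cdk1 ran from 0.08 to 0.35, and that of Ccnb1 from 0.16 without vehicle number 4 to 0.86 without vehicle number 1. Mcm6 had the highest log2 fold change in kidney, at 0.67 with an SE of 0.68. The genes not given above lay between -0.34 for Rrm2 and 0.43 for Plk1, among them Mcm4 (-0.23), Ccne1 (0.29), Bub1b (0.08), Foxm1 (-0.12), Aurkb (0.34) and Prc1 (-0.26).

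**Figure D2:**
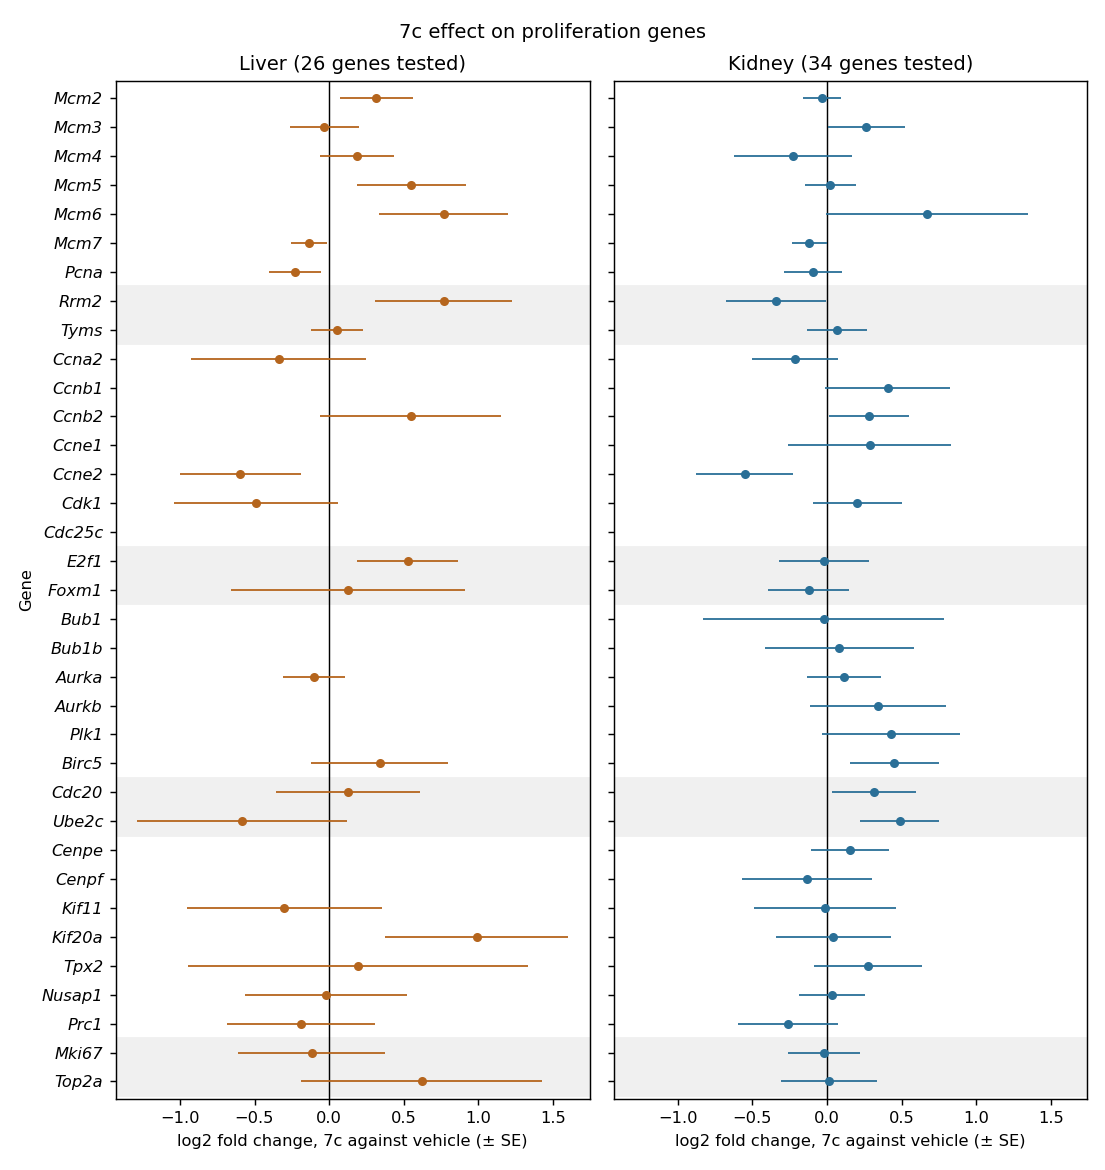
Log2 fold change of 7c against vehicle (horizontal axis, ± SE from edgeR) for each tested gene in liver (left, 26 genes) and kidney (right, 34 genes), with rows ordered by role. Estimates lie on both sides of 0, between -0.60 and 0.99 for liver, and between -0.55 and 0.67 for kidney, and the errors are widest for mitotic genes such as Tpx2 in liver (SE 1.14).

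Whether 7c acted differently in the tissues was tested as a treatment by tissue interaction for the 26 genes with enough counts in the combined fit. None passed the threshold (0.00706% of 14163 genes did) and none had an unadjusted p under 0.05 (2.49% of all tested genes did). The median interaction was -0.04 on the log2 scale, and its sign depended on the fit, at 0.12 by limma-voom, 0.06 with the replicate block, and from -0.08 (without 7c number 5) to 0.12 (without 7c number 4) when 1 number was left out. The lowest unadjusted p was that of Rrm2, with a log2 fold change of 0.77 in liver and -0.34 in kidney and an interaction of 1.09 (SE 0.59). Its kidney levels were 3.28, 1.52, 4.52 and 4.57 CPM with vehicle and 1.28 to 4.15 CPM with a median of 2.84 under 7c.

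The tissues differed more than the treatments. In vehicle mice, 8 of 33 tested genes were lower in liver than in kidney and 2 were higher, where 27.7% and 25.7% of 17245 genes were. In 7c mice, 15 of 33 were lower and 3 higher, where 34.8% and 30.9% of 17117 genes were. The count of lower genes among vehicle mice was close to the background and the count of higher genes was below it. The median log2 fold change of liver against kidney was -0.90 in vehicle mice against -0.06 for all genes, and -0.58 in 7c mice against -0.08. Genes were kept for these comparisons by their counts in both tissues together, so a gene could enter through kidney alone. Ccnb1, Aurkb, Plk1, Cenpe and Cenpf were below the filter over all livers and were tested here. Their lower values in liver, and their pull on the counts and medians, are in part set by that filter. Taken in either direction, 10 of 33 passed in vehicle mice (53.4% of all genes did) and 18 in 7c mice (65.7%), and 13 (58.4%) and 21 (68.7%) had an unadjusted p under 0.05. Tissues did not overlap in vehicle mice for 2 tested genes higher in liver (25.1% of all genes) and 8 higher in kidney (28.1%), and in 7c mice for 3 (22.9%) and 6 (24.9%). The 2 comparisons use different libraries. Liver and kidney differ in composition, and TMM factors were 0.749 to 0.858 in liver and 1.13 to 1.32 in kidney. With library totals alone the medians of all genes moved to -0.66 in vehicle mice and -0.70 in 7c mice, and the calls to 18 lower and 1 higher in vehicle mice, where 47.3% and 13.9% of all genes were. In 7c mice they moved to 22 lower and 1 higher, against 57.5% and 16% of all genes. Relative to all genes, the median of the 33 genes was -0.84 in vehicle mice and -0.50 in 7c mice under TMM.

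Replication genes went in both directions. Mcm2 was at 4.47 ± 1.43 CPM (SD, n = 4) in vehicle livers and 10.1 ± 1.13 in vehicle kidneys, with no overlap, a log2 fold change of -1.17 (SE 0.25, adjusted p = 0.00211), and -0.84 (SE 0.15, adjusted p = 0.000142) in 7c mice. Mcm6 differed by -2.04 (SE 0.66, adjusted p = 0.0216) and -1.96 (SE 0.50, adjusted p = 0.00299), but its groups overlapped in both comparisons because kidney levels spread widely. Limma-voom did not call Mcm6 in either comparison (adjusted p = 0.125 and 0.0802). Mcm3 was the reverse, at 7.10, 4.52, 9.997 and 6.96 CPM in vehicle livers, all above the vehicle kidneys, with log2 fold changes of 1.33 (SE 0.34, adjusted p = 0.00618) and 1.01 (SE 0.19, adjusted p = 0.000255). Under library totals the Mcm3 differences were 0.74 and 0.38 and did not pass (adjusted p = 0.0812 and 0.0995). Subunits of the same hexameric helicase thus had differences of opposite sign under TMM, and the gap between the log2 fold changes of Mcm3 and Mcm6 does not depend on the scaling. Mcm7 was nearly level, at 21.0 ± 0.444 CPM in vehicle livers and 22.1 ± 2.58 in vehicle kidneys (log2 fold change -0.07, SE 0.14). Mcm4, Mcm5, Pcna, Rrm2 and the thymidylate synthase gene Tyms did not pass in either comparison under TMM. Under library totals Pcna was lower in liver in 7c mice (-0.49, adjusted p = 0.0173), and so was Cdk1 (-1.21, adjusted p = 0.0221). Cdk1 shares 49 exon bases with Ank3 on the other strand, which was at 24.5 CPM in vehicle livers and 122 CPM in vehicle kidneys.

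Among the 22 tested genes of cyclins, mitotic kinases, anaphase promoting complex, spindle and chromosomes, 5 were lower in liver and 1 was higher in vehicle mice, a share of lower genes near that of all genes. In 7c mice 12 of the 22 were lower and 1 was higher, where 34.8% and 30.9% of all genes were. Among the 12 were Ccnb1, Aurkb, Plk1, Cenpe and Cenpf, genes below the filter in liver that could enter through kidney alone. Mki67 was at 1.06 ± 0.644 CPM in vehicle livers and 3.07 ± 0.503 in vehicle kidneys with no overlap, a log2 fold change of -1.53 (SE 0.47, adjusted p = 0.0169), and -1.64 (SE 0.30, adjusted p = 0.00016) in 7c mice. Cdc20 was lower by -1.54 (SE 0.43, adjusted p = 0.0107) and -1.73 (SE 0.33, adjusted p = 0.000239), again with every vehicle kidney above every vehicle liver. It shares 53 exon bases with Elovl1 on the other strand, which was at 67.7 CPM in vehicle livers and 121 CPM in vehicle kidneys. Foxm1, the transcription factor of the mitotic genes, was at 0.474 ± 0.367 CPM in vehicle livers and 1.89 ± 0.516 in vehicle kidneys, with log2 fold changes of -1.99 (SE 0.77, adjusted p = 0.0478) and -1.76 (SE 0.39, adjusted p = 0.000873). Foxm1 shares 489 exon bases with Rhno1 and Gm15862 on the other strand, and Rhno1 was at 8.11 and 8.15 CPM in vehicle livers and kidneys. The part of these overlaps in the calls was not tested. The polo-like kinase gene Plk1 differed by -2.74 (SE 1.03, adjusted p = 0.0443) and -2.13 (SE 0.60, adjusted p = 0.00564), from 0 to 7 counts in the vehicle livers. Cenpe stood furthest apart in 7c mice, at 0 to 0.256 CPM in livers and 1.68 to 3.20 CPM in kidneys, a log2 fold change of -4.21 (SE 0.63, adjusted p = 2.46e-05), and -1.95 (SE 0.74, adjusted p = 0.0448) in vehicle mice. Ccnb2 passed in both at -1.52 (adjusted p = 0.037) and -1.27 (adjusted p = 0.00768). In 7c mice, Aurkb (-3.51), Cenpf (-2.76), Ube2c (-2.21), Ccnb1 (-1.70), Top2a (-1.26), Nusap1 (-0.96) and Ccna2 (-0.92) also passed and in vehicle mice they did not. Their vehicle values were -1.33, -2.17, -1.11, -2.03, -1.85, -0.88 and -0.78, and the 4 of these genes that could be tested for interaction had no call. In vehicle mice Top2a, Ube2c and Cenpf passed with DESeq2 (adjusted p = 0.0486, 0.0291 and 0.0313), Top2a and Cenpf with limma-voom (0.0433 and 0.0169), Ccnb1, Ube2c and Cenpf with the likelihood ratio test (0.0352, 0.0289 and 0.0184), and all 4 with edgeR's other quasi-likelihood method (0.0272 to 0.0372 for Top2a, Ccnb1 and Ube2c, 0.0186 for Cenpf). In vehicle mice, Aurka, Mcm2 and Mcm3 passed whichever number was left out, and the other 7 calls did not. Ccnb2 was lost without any 1 of the 4 numbers (adjusted p = 0.0661 to 0.0847), Plk1 without 1, 3 or 4 (0.0861, 0.152 and 0.122), Cenpe without 2, 3 or 4 (0.122, 0.0607 and 0.0823) and Foxm1 without 1, 2 or 3 (0.111, 0.116 and 0.067). Mcm6 was lost without 1 or 2 (0.0862 and 0.0809), Mki67 without 1 or 3 (0.0574 and 0.0549) and Cdc20 without 4 (0.0765). Ccnb2 (0.0615), Plk1 (0.118) and Cenpe (0.0818) were also lost with the replicate block, and Ccnb2 with no filter (0.0621). Conversely, Aurkb passed without number 2 (-4.19, adjusted p = 0.00641), Ccnb1 (-3.26, 0.0307), Cenpf (-3.71, 0.0117) and E2f1 (0.90, 0.0467) without number 3. Without number 1 of both tissues 3 genes were lower in all, against 24% of all genes, and without number 4 there were 4, against 24.3%. Without number 6 of the 7c group, whose liver held muscle transcripts, 13 genes were lower and 3 higher in 7c mice (32.5% and 30.7% of all genes), and Ccnb1 (edgeR adjusted p = 0.0615) and Ccna2 (0.0533) no longer passed. Ccna2 in 7c mice was also lost without number 1 (0.0951), without number 3 (0.0676) and with no filter (0.0623).

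Few genes were higher in liver. Aurka, a spindle kinase gene, was at 4.53, 5.21, 5.52 and 3.69 CPM in vehicle livers and 1.08, 1.39, 1.23 and 1.53 CPM in vehicle kidneys, without overlap, with log2 fold changes of 1.86 (SE 0.28, adjusted p = 0.000197) and 1.62 (SE 0.21, adjusted p = 6.36e-06). It kept its call under library totals. Aurka shares 1510 exon bases with Fam210b, Cstf1 and Gm75386 on the other strand. Fam210b was at 174 CPM in vehicle livers and 19.5 CPM in vehicle kidneys, and reads of the genes cannot be told apart without the strand setting. E2f1 was higher in livers of 7c mice at 3.22 to 7.10 CPM against 0.939 to 2.97 CPM in kidneys (log2 fold change 1.13, SE 0.30, adjusted p = 0.00351), whereas it did not pass in vehicle mice (0.61, SE 0.38). The difference between these 2 values did not pass the interaction test (0.54, SE 0.47), and E2f1 lost its call under library totals (0.51, adjusted p = 0.147).

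Of 6 macrophage markers, 4 were higher in liver in vehicle mice, and 5 were higher and 1 lower in 7c mice. Of the lymphocyte markers, 1 of 7 tested was lower in liver in vehicle mice, and 1 of 8 was higher and 1 lower in 7c mice, where 53.4% and 65.7% of all genes passed in either direction. The summed level of 8 lymphocyte markers was 9.42 to 25.5 CPM in livers and 13.3 to 86.2 CPM in kidneys, and that of 6 macrophage markers 105.7 to 314 CPM in livers and 72.0 to 117 CPM in kidneys, ranges that overlapped for both lists. Their part in the differences of the proliferation genes was not tested.

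**Figure D3:**
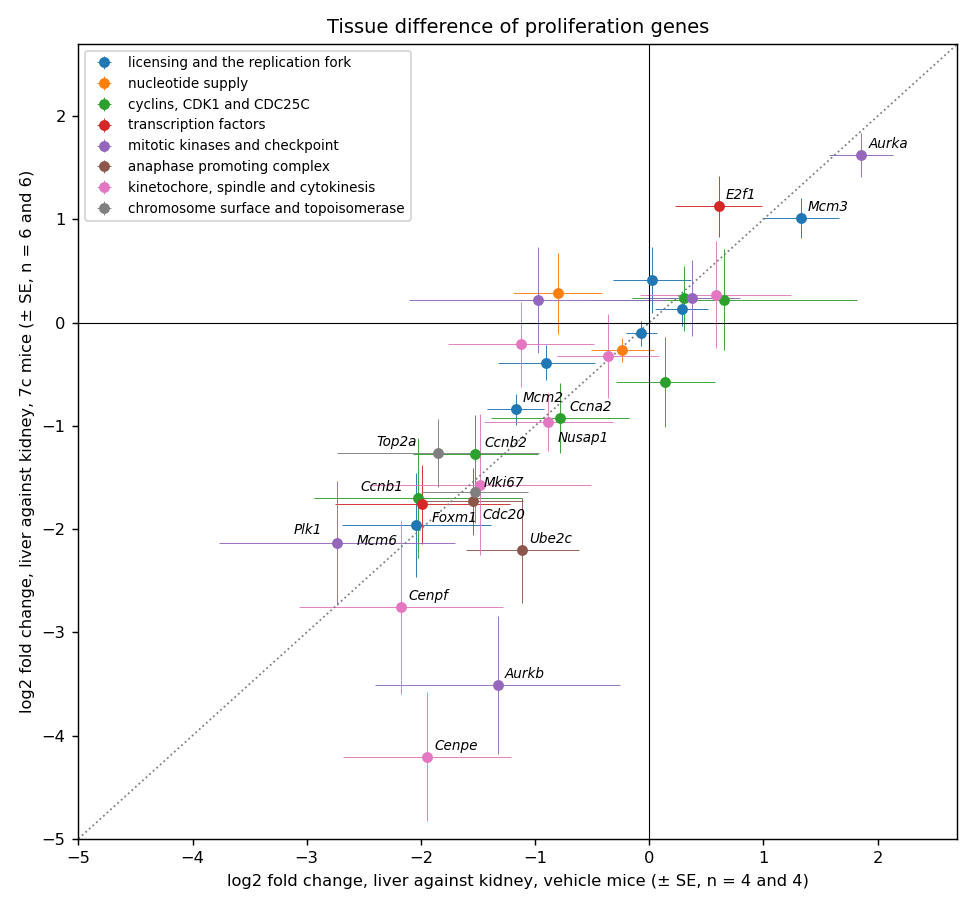
Log2 fold change of liver against kidney in vehicle mice (horizontal axis, ± SE, n = 4 and 4) and in 7c mice (vertical axis, ± SE, n = 6 and 6) for 33 genes, coloured by role, with the line of equal values dotted. Named genes passed the threshold in at least 1 comparison, most of them in the lower left quadrant (higher in kidney), with Aurka, Mcm3 and E2f1 in the upper right.

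Between libraries of a tissue, Mcm6 had a larger SD of log2 CPM than the other 6 licensing and replication fork genes in both liver and kidney. In kidney it was at 10.7, 11.2, 19.1 and 1.34 CPM with vehicle and at 22.6, 25.6, 8.81, 28.1, 15.9 and 1.68 CPM under 7c, from 48 to 1856 counts. Vehicle kidney 4 and 7c kidney 6 thus stood apart at the bottom, and the range was 21.0-fold. In SD of log2 CPM within kidney, Mcm6 ranked 138 of 17749 genes, while Mcm2 ranked 15681 with a 1.37-fold range. In liver the Mcm6 range was 5.04-fold, and the livers numbered vehicle 4 and 7c 6 were again low, at 1.28 and 1.81 CPM, the second being the liver with muscle transcripts. The nearby gene Ubxn4 varied 1.39-fold in kidney, beside Mcm6 at chr1:128259311-128287516 (GRCm39, minus strand).

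Because the low libraries carried the same numbers, liver and kidney levels of each gene were compared by number. Levels were not centred on group means, and permutations ran over 7c and vehicle numbers together. For Mcm6, Pearson's coefficient over all 10 numbers passed the adjustment (permutation p = 0.00023, adjusted p = 0.00805 over 35 genes). Spearman's coefficient over the same numbers did not (permutation p = 0.00569, adjusted p = 0.199). The 2 low kidneys form a cluster of their own, so both coefficients are given without them, a step added after the data were seen. Over the other 8 numbers, Mcm6 had Pearson's r = 0.85 (exact permutation p = 0.0196, adjusted p = 0.343 over 35 genes) and Spearman's rho = 0.64 (exact permutation p = 0.0962, adjusted p = 0.481). Pcna had r = 0.76 over 10 numbers (permutation p = 0.0101, adjusted p = 0.158) and rho = 0.59 (permutation p = 0.0818, adjusted p = 0.513), and r was 0.71 without the 2 numbers furthest from the median in liver. Neither of these values passed the adjustment. Relations of the opposite sign were about as large. Cdk1 had r = -0.64 over 10 numbers (permutation p = 0.0136, adjusted p = 0.158) and rho = -0.58 (permutation p = 0.088, adjusted p = 0.513), and r was -0.33 without the 2 numbers furthest from the median in liver. Tyms had r = -0.68 (permutation p = 0.0418, adjusted p = 0.366) and rho = -0.58 (permutation p = 0.0864, adjusted p = 0.513), and r was -0.52 without the 2 furthest. Over the 8 numbers used for Mcm6, Tyms had the lowest p of the 35 genes, with r = -0.90 (exact permutation p = 0.00593, adjusted p = 0.207). The labels do not state that equal numbers are 1 animal.

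**Figure D4:**
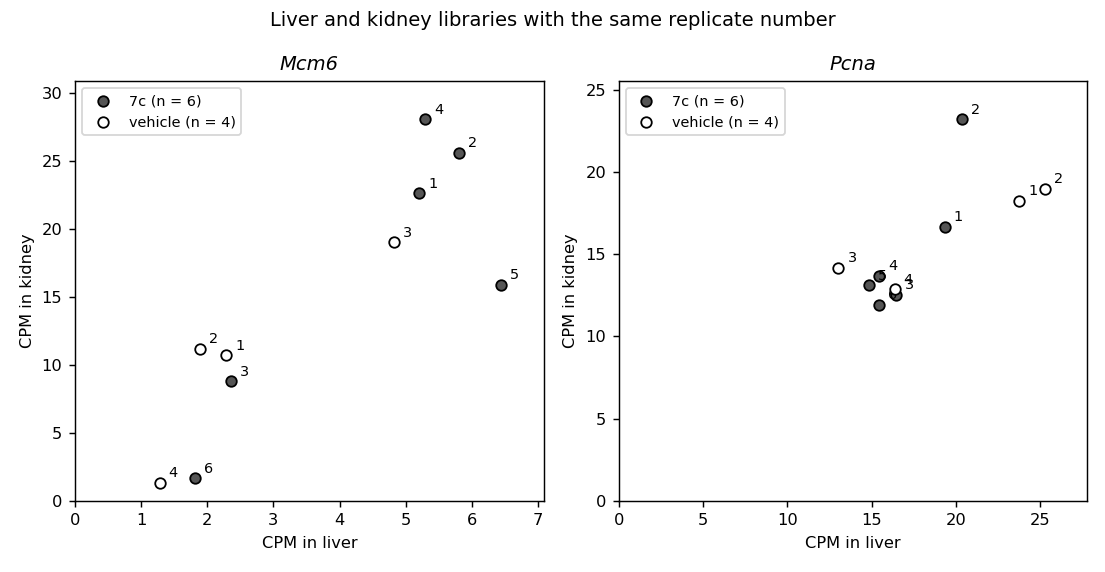
CPM in kidney (vertical axis) against CPM in liver (horizontal axis) for libraries of the same group and number, for Mcm6 (left) and Pcna (right); filled points are 7c (n = 6), open points vehicle (n = 4), and digits are the numbers in the labels. For Mcm6, vehicle 4 and 7c 6 lie at the lower left, at 1.28 and 1.81 CPM in liver and 1.34 and 1.68 CPM in kidney.

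Correlations between the genes across libraries of a group were weak on average. After group means were removed, the median Pearson's r between pairs of the tested genes was 0.00 in liver (325 pairs) and 0.08 in kidney (561 pairs), and between the 15 cyclin, mitotic kinase, checkpoint, spindle and chromosome genes tested in liver it was -0.03. Between the 23 such genes tested in kidney, which had more counts, it was 0.12 with 62.1% of pairs positive, and between the 7 licensing and replication fork genes it was 0.14 in liver and 0.06 in kidney. Single liver pairs lay between -0.86 and 0.88, and single kidney pairs between -0.85 and 0.93. The pairs share the same 10 libraries and, in liver, few counts.

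Genes that act around this programme were examined in 5 further lists of 90 genes, the G1 cyclins and kinases, the CDK inhibitors and pocket proteins, the E2F, DREAM and B-MYB regulators, and other genes of replication and of mitosis. None passed the threshold for 7c in liver or kidney (adjusted p = 0.997 or more). In liver, 2 of 68 tested genes had an unadjusted p under 0.05 (3.76% of all tested genes did), Cdkn1b, a CDK inhibitor gene (log2 fold change -0.23, SE 0.10), and Chaf1b, a subunit of the chromatin assembly factor (-0.92, SE 0.34). The next lowest p in these lists belonged to the pocket protein gene Rbl2 (-0.32, SE 0.15) and to Cks1b, which binds cyclin-dependent kinases (0.54, SE 0.25). In kidney, 4 of 84 did (2.61% of all tested genes): Mcm10, which acts in origin firing (0.56, SE 0.21), Cdc6, which loads the helicase (-1.06, SE 0.41), the kinesin gene Kif2c (-1.23, SE 0.37) and the spindle gene Hmmr (-0.69, SE 0.31). Among the G1 genes the lowest p values were those of Cdk4 in liver (0.16, SE 0.13) and Cdk2 in kidney (-0.19, SE 0.20), and among the E2F and DREAM regulators those of Lin37 in liver (-0.19, SE 0.16) and Tfdp2 in kidney (-0.19, SE 0.13). The other lowest p values of these lists in liver belonged to Ccnd3 (0.12), Ccnd1 (0.15), Cdkn1a (0.83), Lin54 (0.20), E2f6 (-0.07), Pola1 (-0.41), Gins4 (0.20), Fzr1 (0.13) and Cdca8 (0.46). In kidney they belonged to Cdk6 (-0.14), Cdk4 (0.09), Rb1 (-0.16), Rbl2 (-0.27), Cdkn2d (0.15), E2f3 (-0.30), Lin54 (-0.30), Uhrf1 (0.44) and Cdca8 (-0.29). Median log2 fold changes of the 5 lists lay between -0.04 and 0.10 in liver, and between -0.13 and 0.04 for kidney.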

How the data were processed

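Bulk RNA-seq of liver and kidney was analysed from the gene counts deposited by the authors, who used STAR 2.7.11b and featureCounts 2.0.6 according to the submitters' processing notes. The annotation release, strand setting and treatment of multi-mapping reads are not given in the sources used here. Genes reaching 10 counts in 50% or more of the compared libraries were tested with edgeR 4.0.16 (TMM, quasi-likelihood F-test, Benjamini-Hochberg threshold 0.05) in R 4.3.3. Levels are CPM from 1 TMM scaling of 20 libraries (18598 genes), and log2 CPM used a prior count of 2. Alternatives were DESeq2 1.42.0, limma-voom (limma 3.58.1), other scalings, filters and edgeR tests, a replicate block and leaving out each mouse number. Scripts were tested on simulated data.

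The genes and lists were chosen with earlier results of these data known. Per-library values are given for Mki67, Top2a, Ccnb1, Cdk1, Pcna, Mcm2 and for genes with the lowest p, extreme levels or large tissue differences, with 3 genes per pathway list. The gene beside Mcm6 and the overlapping genes were chosen after their values were seen. Promoters and exon lengths came from GRCm39 with GENCODE. Because nothing but the label separates the replicates, p-values measure the spread between these libraries.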

Additional observations from a re-analysis of the deposited data

Results flagged for a closer look

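In 7 of 140 groups of values examined (35 genes in 4 groups), 1 library lay far from the rest of its group by Dixon's criterion. For normally distributed values, chance alone marks about 1 in 20 groups. Many of these values are CPM of few counts, and groups that are all 0 cannot be marked, so that rate may not hold here. All 7 were in liver. Vehicle liver 2 had 0.801 CPM of the kinase gene Aurkb from 22 counts, where the other vehicle livers had 0 to 0.071 CPM. The same library had 0.583 CPM of the checkpoint gene Bub1b from 16 counts, against at most 0.071 CPM in the others. Vehicle liver 3 had 0.483 CPM of Cenpf from 14 counts, against at most 0.0816 CPM. Vehicle liver 1 had 2.04 CPM of the kinesin gene Kif11 from 50 counts, against 0.552 to 0.656 CPM.

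Among the 7c livers, number 5 had 0.181 CPM of Cdc25c from 4 counts where the other 5 had 0, number 3 had 24.6 CPM of Mcm7 against 16.8 to 19.6 CPM, and number 4 had 10.3 CPM of Tyms against 7.35 to 8.43 CPM. The causes were not tested.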

How the results depend on the processing

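In all settings run, none of the 35 genes passed the threshold for 7c in liver or kidney or for the interaction. Of all tested genes, at most 0.0266% were called higher and 0.02% lower in liver, and 0.0451% and 0.0845% in kidney. For the interaction the highest shares were 0.134% and 0.0212%. Directions near 0 turned: Mki67 in liver was 0.02002 by limma-voom, Pcna in kidney 0.000236 with the replicate block and Top2a in kidney -0.006495 with library totals only. Leaving out 1 mouse number, kidney log2 fold changes ran from -0.0950 to 0.0215 for Mcm2, -0.11 to 0.11 for Mki67 and -0.26 to 0.18 for Top2a, and the liver value of Mki67 from -0.41 to 0.30. The medians of the genes ran from -0.04 to 0.24 in liver, 0.000613 to 0.11 in kidney and -0.08 to 0.12 for the interaction, which was 0.12 by limma-voom and 0.06 with the replicate block. Low counts of mitotic genes in liver limit what these settings can show.

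The settings with counts halved and with library totals only were chosen after seeing the data. Under library totals, in vehicle mice 1 gene was higher and 18 lower in liver (13.9% and 47.3% of all genes), with a median of -1.51 against -0.66 for all genes and Cdk1 at -0.47, Pcna at -0.32 and E2f1 at -0.00198, and in 7c mice 1 was higher and 22 lower (16% and 57.5% of all genes), with a median of -1.21 against -0.70 and Pcna at -0.49, where Pcna and Cdk1 (-1.21) passed as lower. The vehicle median was -1.20 by limma-voom, and the 7c median was -0.85 by limma-voom and -0.83 without a filter. The vehicle count of lower genes was 11 by DESeq2 (31.4% of all genes) and limma-voom (29.5%) and 12 by the other edgeR quasi-likelihood method (29.7%). It was 3 to 7 when 1 number was left out (24% to 29.5%), when Cdk1 ran from -0.18 to 0.40. With a prior count of 0.5 the mean log2 CPM was -0.31 in 7c livers and -0.63 in vehicle livers.

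The labels do not pair samples by number, and the rule for pairing, a correlation over 0.1 in every pair, was met by 7 of 10 pairs. Deviations of liver and kidney libraries of the same number correlated at 0.013 to 0.259, and 8 of 10 livers correlated best with the kidney of their own number. That is a hint from the data of pairing by number, which the labels do not state. With the replicate block the median was -1.12 in vehicle mice, with 6 genes lower and 2 higher (26.4% and 24.3% of all genes), and -0.68 in 7c mice. For 7c against vehicle the block tied libraries of equal number that came from different animals. No gene passed there, as 0% of all genes did in either tissue, so that fit adds no support.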

Other observations

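The further pathway lists differed between tissues in both directions, on the log2 scale of liver against kidney. Among 6 G1 cyclin and kinase genes, 2 were higher and 3 lower in liver of vehicle mice and 3 and 3 in 7c mice, and Ccnd1, encoding cyclin D1, was at -4.71 in vehicle and -4.48 in 7c mice. Of 9 tested CDK inhibitor and pocket protein genes, 5 were lower in both comparisons and none was higher, among them Cdkn1c (-3.18 and -3.56) and Cdkn2c (-2.87 and -2.62).

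Of 14 E2F, DREAM and B-MYB regulators, 3 were higher and 1 lower in vehicle mice, and 6 and 3 in 7c mice. The atypical repressors E2f8 (4.11 and 4.66) and E2f7 (2.96 and 3.41) were higher in liver and E2f5 (-1.71 and -1.84) lower. Of 23 other replication genes tested in vehicle mice, 6 were higher and none was lower, and of 22 in 7c mice 8 were higher and 4 lower, with Mcm10 at 4.53 and 4.16, Gins1 at 1.71 and 1.74 and Tk1 at 1.35 and 1.39. Of 28 other mitosis genes, 2 were higher and 11 lower, and of 27 in 7c mice 2 and 12, with Hmmr at -4.49 and -2.18, Spag5 at -2.97 and -2.35 and Kif23 at -2.69 and -2.49. The shares over all genes are those given for the same comparisons above.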
